A study of Danio rerio with 4 samples.

Results

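The 388 strong single Tbx6myc peaks are high-scoring, solitary peaks of the induced, myc-tagged T-box factor Tbx6 that have another Tbx6myc peak at a moderate distance. They were drawn from a list of 3997 peaks from transgenic zebrafish embryos. Peaks on the 25 numbered chromosomes that shared no base with a peak of the wild-type control list were kept, which left 3778. A kept peak was taken if its nearest other kept peak lay more than 10 kb and at most 200 kb away, edge to edge, and if its averaged score was 300 or more. The score is the authors' own value, an averaged −10 × log10 of the peak caller's p-value. A peak is called stronger here for a higher score, which is not a measure of how strongly the factor binds. The members were thus selected on score and spacing, and both are given below as a description, with no test. The whole rule took 10.3% of the kept peaks, and its score threshold alone took 22.1% of them, or 835 peaks.

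T-box proteins are transcription factors that bind DNA through a conserved T-box domain. Tbx6 acts in the presomitic mesoderm, the unsegmented tissue at the tail end of the embryo, where somites are set off one after another. In zebrafish, loss of its function gives the fused somites phenotype, and it works there with the Mesp and Ripply proteins that mark the forming somite boundary. Factors of this kind often bind far from the genes they regulate, as single elements or as groups of elements around one gene.

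The embryos of the Tbx6myc list carried Tg(hsp70l:tbx6Myc)v8, a transgene in which a heat-shock promoter drives myc-tagged tbx6, and those of the control list were labelled Weslyan University wild type. Both were whole embryos at the stage labelled 10S, both were kept at 37 °C for 1 h before fixation, and an anti-myc antibody was used on both. A heat-shock promoter is active in most tissues, so a peak need not mark a site of the endogenous protein in presomitic mesoderm. The Tbx6myc list merges 2 ChIP libraries and their inputs, the wild-type list of 398 peaks comes from 1 ChIP library, and the depth of each is unknown. With 1 list for each genotype no value has an error between replicates, and intervals on shares are 95% Wilson intervals that cover counting error only. Positions are on Zv9. No sequence or annotation of that build was used here, so peaks are given by position, with neither bases nor gene names.

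Strong peaks made up a smaller share of the kept peaks at longer spacing. Of the peaks in loci of 3 or more, where each peak is joined to the next within 10 kb, 34.8% scored 300 or more (interval 29.8 to 40.1%, 114 of 328). The share was 28.1% in loci of 2 (24.9 to 31.5%, 196 of 698). Of the 1925 single peaks with a neighbour between 10 and 200 kb, 20.2% reached the threshold (18.4 to 22.0%), and these are the 388 members. Remote peaks, over 200 kb from any other, had the lowest share of the 4 classes, at 16.6% (14.2 to 19.3%, 137 of 827). Within the members' own range, the share was 25.7% (21.6 to 30.4%, 96 of 373) for a neighbour at 10 to 20 kb and 21.7% (18.5 to 25.3%, 121 of 557) at 20 to 50 kb. It was 16.6% (13.6 to 20.2%, 79 of 475) at 50 to 100 kb and 17.7% (14.7 to 21.2%, 92 of 520) at 100 to 200 kb, so the shares beyond 50 kb differed little. Within this range the intervals of adjoining spacings overlapped. Within 50 kb of the next peak lay 217 members (55.9%), against 48.3% of all 1925 single peaks (930 of them).

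**Figure D1:**
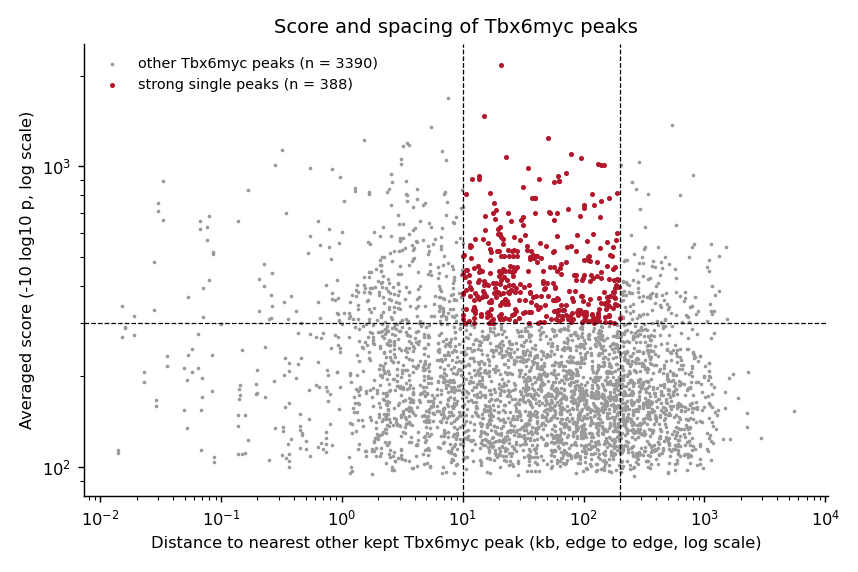
Averaged score of each kept Tbx6myc peak (y axis, −10 log10 p, log scale) against the distance to its nearest other kept peak (x axis, kb, log scale). Dashed lines mark the thresholds of the rule (10 kb, 200 kb and a score of 300); the 388 members are red and fill the upper middle field, with the strongest at 2177.

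The members' scores ran from 300.1 to 2177, with a median of 397 and quartiles of 334 and 505. Of them, 195 (50.3%) scored under 400, and 140 scored from 400 to under 600. A further 44 scored from 600 to under 1000, and 9 scored 1000 or more. The upper end of the class was therefore thin, and it was not particular to the class. The 95th percentile of the members' scores was 838. It was 850 for strong peaks in loci of 2, 959 in loci of 3 or more and 802 for strong remote peaks. Of the 100 highest peaks of the whole list, scaffolds and wild-type overlaps included, 39 were members. Members made up 46.5% of the 835 kept peaks at or above the score threshold. That base leaves out scaffolds and wild-type overlaps and reaches down to a score of 300, so these shares cannot be compared directly. A member of typical strength was chr11:19057274-19057719, 446 bp wide, with a score of 398 and its neighbour (score 236) 22.4 kb away.

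The strongest member was also the strongest peak of the list. It lay at chr2:35391815-35392640, was 826 bp wide and scored 2177. Its nearest kept peak, 20.6 kb towards higher coordinates, was itself a member and scored 503, while on the other side the gap to the next kept peak was 1567 kb. The second, chr10:10851737-10852520, scored 1463 and stood next to a group: its neighbour, 15.0 kb away, scored 588 and belonged to a locus of 3 peaks, and 7 kept peaks lay within 200 kb. Chromosome 2 held the third as well, at chr2:27628958-27630434, with a score of 1245, a width of 1477 bp and a neighbour of score 283 at 50.3 kb. Both chromosome 2 peaks had 2 kept peaks within 200 kb and a lone peak as nearest neighbour. Only the chromosome 10 peak thus stood beside a group, although all 3 were single by the rule.

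The next 7 members scored between 986 and 1096. They were chr1:38633738-38634456 (score 1096), chr7:50040058-50040893 (1073), chr8:45706448-45707334 (1067) and chr1:4600219-4600781 (1014). The others were chr12:36748125-36748930 (1012), chr5:51153815-51154457 (1008) and chr23:23125824-23126503 (986). In all 10 the nearest kept peak scored lower, from 153 beside the peak of score 1014 on chromosome 1 to 588 on chromosome 10. The neighbour of the chromosome 7 peak, 23.0 kb away, was a deposited interval of only 42 bp with a score of 314, in a locus of 3 peaks. Around the chromosome 8 peak 7 other kept peaks lay within 200 kb, and around the peak at 4600219 on chromosome 1 there was 1. The number of peaks around a member thus varied widely among these 10.

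At the edges of the rule the values were close on both sides. The lowest member scores were 300.1 at chr8:45848623-45849130 and 301 at chr14:33795513-33795956, and the first single peaks left out scored 299.8 at chr7:34791472-34792511 and 299 at chr13:50370078-50370409. The shortest spacings inside were 10028 bp at chr22:18797154-18797629 (score 437) and 10034 bp at chr5:21473965-21474514 (score 309.95). Strong peaks just left out as too close had spacings of 9989 bp at chr13:13187469-13188167 (score 554) and 9961 bp at chr12:28722612-28723603 (score 733). At the upper limit, the members chr21:30685634-30686094 (score 312) and chr8:31294849-31295278 (score 395) had spacings of 198465 and 198123 bp. Beyond it, chr11:41887394-41887864 (score 356) and chr23:14515437-14516319 (score 1006) had 203063 and 203588 bp. Each threshold thus cut through a continuous run of values.

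Members were broader than weaker single peaks of the same spacing and about as broad as strong peaks of other spacing. The median width of members was 605.5 bp, with quartiles of 486 and 737 bp. For the 1537 weaker single peaks it was 459 bp (380 to 553 bp), and over all kept peaks 482 bp. Strong peaks in loci of 2 had a median of 612.5 bp, those in loci of 3 or more 607 bp, and strong remote peaks 574 bp. Width comes from the same peak call as the score, and it was larger at higher scores among the members: the median was 563 bp for scores under 400, 620.5 bp from 400, 674.5 bp from 600 and 806 bp from 1000. Across the 388 members Spearman's rho between score and width was 0.25, a description over peaks of 1 list. The widths are thus no evidence apart from the rule.

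The widest members were chr17:24177821-24179448 at 1628 bp (score 903), the 1477 bp peak on chromosome 2 described above, and chr1:40737083-40738421 at 1339 bp (score 744). In all, 22 members (5.67%) were wider than 1000 bp, against 1.77% of all kept peaks. The other strong classes had 3.65% (remote), 8.67% (loci of 2) and 7.02% (loci of 3 or more). The narrowest were chr22:15913014-15913305 at 292 bp (score 343), chr3:39299714-39300006 at 293 bp (score 314) and chr11:39941202-39941516 at 315 bp (score 383). No member was under 277 bp, the least width in the wild-type list, whereas 78 weaker single peaks (5.07%) were. Such short intervals were also few among the other strong peaks, with 0 of 137 remote peaks, 2 of 196 in loci of 2 and 2 of 114 in loci of 3 or more, against 4.18% of all kept peaks. Width was smaller at longer spacing, from a median of 651 bp for members with a neighbour at 10 to 20 kb, over 633 and 570 bp, to 523.5 bp at 100 to 200 kb (rho −0.18).

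**Figure D2:**
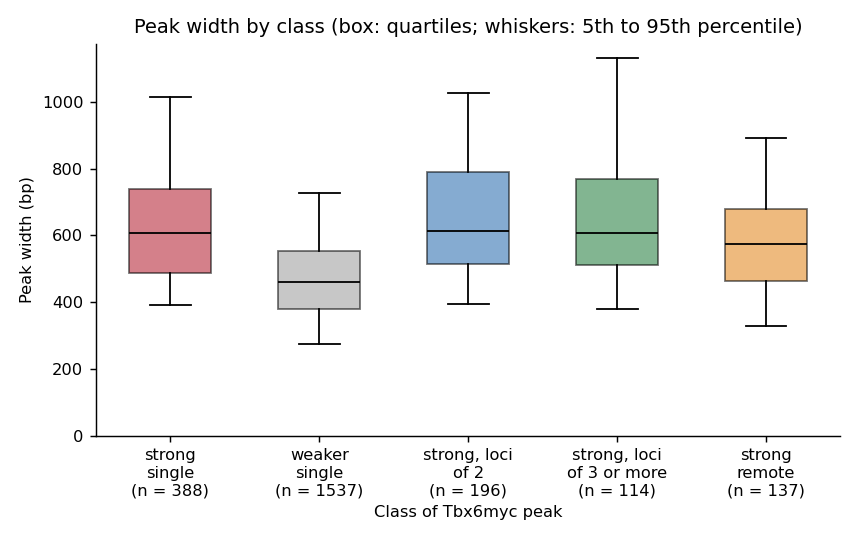
Width of peaks (y axis, bp) in 5 classes of kept Tbx6myc peaks; lines are medians, boxes quartiles and whiskers the 5th and 95th percentiles. Strong single peaks (median 605.5 bp) lie above weaker single peaks (459 bp) and near the other strong classes (574 to 612.5 bp).

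The nearest neighbours of the members had scores and widths near those of the list as a whole. Their median score was 199 (quartiles 146 and 308), against 188 (140 and 274) for the neighbours of weaker single peaks and 193 for the neighbours of all kept peaks. Their median width of 481 bp lay next to the 482 bp of all kept peaks. Among neighbours of members, 27.1% scored 300 or more (22.9 to 31.7%, 105 of 388), against 20.8% (18.9 to 22.9%) beside weaker single peaks and 24.0% (22.7 to 25.4%) beside all kept peaks. A member's own score told little of its neighbour's, with a rho of −0.03. The nearest peak scored lower than the member in 334 cases (86.1%) and equally in 4. It scored lower for 48.8% of all kept peaks. In the other strong classes this share was 87.6% (remote), 82.1% (loci of 2) and 78.1% (loci of 3 or more). For 215 members (55.4%) the nearest peak scored less than 50% of the member's value. The same held for 53.3% of strong remote peaks, 44.4% of strong peaks in loci of 2, 40.4% in loci of 3 or more and 14.5% of all kept peaks. Since members had to reach 300, which 22.1% of kept peaks did, a lower neighbour was fixed in most cases by the rule.

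In 50 cases (12.9%) the neighbour scored higher, against 50.7% of all kept peaks. The share was 10.9% for strong remote peaks, 17.9% for strong peaks in loci of 2 and 21.9% in loci of 3 or more. The extreme was chr2:35413215-35413864, a member of score 503 beside the peak of score 2177. The next was chr17:30447923-30448552, with a score of 361, 13.5 kb from a member of score 928. The third highest neighbour score, 892, belonged to a pair of equal peaks on chromosome 10 that is described below. Most neighbours of members, 315 (81.2%), were lone peaks at the 10 kb distance, as were 84.6% for weaker single peaks and 83.9% for all single peaks. Over all kept peaks it was 62.5%, which counts the peaks in loci of 2 or more, whose nearest peak cannot be single. Another 52 (13.4%) belonged to a locus of 2, against 12.4% for weaker single peaks. A locus of 3 or more held 21 (5.41%, 3.57 to 8.13%), against 2.99% (2.25 to 3.97%) for weaker single peaks. The intervals of these last shares overlapped. The nearest peak lay towards lower coordinates for 215 members and towards higher ones for 173, with no other class set beside this split.

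**Figure D3:**
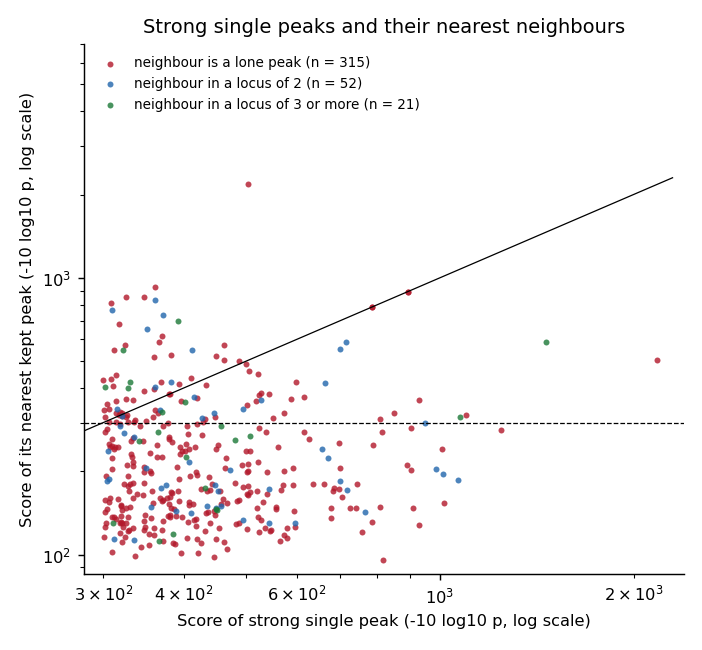
Score of each strong single peak (x axis, −10 log10 p, log scale) against the score of its nearest kept peak (y axis, same unit, log scale), coloured by the size of the neighbour's locus. The solid line marks equal scores and the dashed line a score of 300; 334 of 388 points lie under the solid line.

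Some members came in pairs. The nearest peak of 78 members (20.1%) was another member, and a member was the nearest peak of 15.9% of weaker single peaks. The share was 16.8% over all 1925 single peaks. Over all kept peaks it was 10.2%, which counts the peaks in loci of 2 or more, whose nearest peak cannot be single. In 62.6% of members the nearest peak had the member as its own nearest, about as often as the 63.7% for weaker single peaks. Among these, 32 pairs of members, holding 64 members, were each other's nearest peak at gaps from 10.5 to 179.8 kb (median 38.0 kb). The pair with the highest summed score was that of scores 2177 and 503 on chromosome 2. The next was at chr10:37580390-37581316 and chr10:37644372-37645298, which both had a width of 927 bp and a score of 892, with a gap of 63.1 kb. The third was at chr25:2224431-2224838 and chr25:2264486-2264893, both 408 bp wide with a score of 784, at a gap of 39.6 kb. Only 3 of the 32 pairs had both scores above 500, these 3.

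Equality in both width and score to the last digit was found for those 4 members, which is 1.03% of the class. Among all kept peaks 1.22% (46 peaks) shared width and score with another peak. The share in the class was thus close to that background. Whether the sequences at these positions are copies of each other was not tested. The chromosome 10 peaks had only each other within 200 kb, so each met the spacing rule through the other alone. Those on chromosome 25 each had 2 kept peaks within 200 kb. With 1 peak of each pair of equal width and score in the list left out and the spacing recomputed, the class counted 384 peaks.

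Around members, other Tbx6myc peaks were on average denser than the chromosome mean, as they were around kept peaks in general. Within 200 kb, where the rule required at least 1, members had a mean of 3.22 other kept peaks and weaker single peaks 2.65. Exactly 1 such peak was found for 122 members and for 609 of the 1537 weaker single peaks. There were 3 or more for 185 members (47.7%), against 38.8% of weaker single peaks. Strong peaks in loci of 2 had 63.3%, and those in loci of 3 or more 86.8%. Over all kept peaks it was 39.4%, which counts the 827 remote peaks that have none within 200 kb. That share is therefore no like comparison for the members. On the side away from the nearest peak, the next kept peak lay within 200 kb for 163 of 386 members with peaks on both sides. No other class was set beside this count. The median gap on the side away from the nearest peak was 258 kb, against 303 kb for weaker single peaks. From 200 kb to 1 Mb, a 50 kb bin held a mean of 17.2 other peaks per 100 members, 17.6 per 100 weaker single peaks, 17.0 per 100 kept peaks and 12.6 per 100 strong remote peaks. The mean over the numbered chromosomes was 14.1 for such a bin. Single bins around members ran from 10.3 to 30.1. The highest lay at 200 to 250 kb, and some farther bins fell under the chromosome mean. Beyond the range used by the rule, then, the surroundings of strong and weaker single peaks held nearly equal numbers of peaks.

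**Figure D4:**
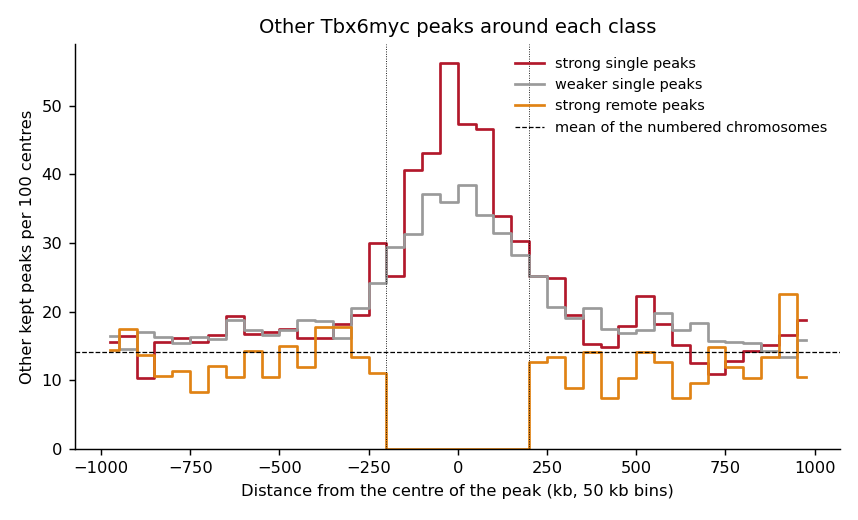
Other kept Tbx6myc peaks per 100 centres (y axis) in 50 kb bins of distance from the centre of a peak (x axis, kb) for strong single, weaker single and strong remote peaks. Dotted lines mark 200 kb, inside which the rule fixed at least 1 neighbour for both single classes and none for remote peaks; beyond it the strong single peaks averaged 17.2 and the remote peaks 12.6, with the chromosome mean of 14.1 dashed.

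Within 200 kb most members were the strongest peak, which their score threshold favours. No kept peak within 200 kb scored as high for 274 members (70.6%, 65.9 to 74.9%), against 23.4% of weaker single peaks. Over all kept peaks the share was 45.7%, which counts the 827 remote peaks, strongest there because they have no other within 200 kb. Within 1 Mb no kept peak scored as high for 176 members (45.4%, 40.5 to 50.3%), against 5.27% of weaker single peaks and 16.7% of all kept peaks. For strong peaks in loci of 2 the share at 200 kb was 61.7% (54.8 to 68.3%), and in loci of 3 or more 43.9% (35.1 to 53.0%). At 1 Mb the shares were 40.3% in loci of 2, 36.8% in loci of 3 or more and 72.3% for strong remote peaks. When kept peaks were joined wherever the gap was at most 200 kb, the members fell into 284 chains, of which 206 held 1 member, 58 held 2, 14 held 3 and 6 held 4. A chain with a member had 2 to 24 peaks, with a median of 4.

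The 6 chains with 4 members spanned 196 to 917 kb. The shortest, chr22:18797154-18992958, held 10 peaks in 196 kb, and its 4 members scored 437 to 579. On chromosome 23 a chain of 24 peaks ran over 917 kb, from 22991311 to 23908373. Its members scored 333 to 986, and its highest peak, in a locus of 2, scored 1686. The other 4 were chr1:4105121-4600781 (9 peaks), chr8:45535635-45876504 (8 peaks), chr14:33509040-33847488 (12 peaks) and chr18:23282203-23878371 (15 peaks). Members were the highest peaks of the chains on chromosomes 1, 8 and 22, and a peak of another class was highest on chromosomes 14, 18 and 23.

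All 25 numbered chromosomes held members, from 6 on chromosome 25 to 28 on chromosome 5, with a median of 16. As a share of a chromosome's kept peaks, they ran from 5.80% on chromosome 2 (8 of 138) to 15.9% on chromosome 1 (25 of 157), around the 10.3% of the whole. Chromosome 10 had 14.6% (18 of 123) and chromosome 22 had 14.4% (17 of 118). Chromosome 2 thus combined the lowest share with the top and the third score of the class. Beyond the midpoint of the chromosome, with the largest deposited coordinate in place of its length, lay 209 members (53.9%, 48.9 to 58.8%), against 49.9% of all kept peaks. Chromosome 4 had all 11 of its members before the midpoint, where 143 of its 147 kept peaks lie. On chromosome 25 all 6 members were before the midpoint as well, although 35 of its 89 kept peaks lay beyond. In 5 stretches of equal length along the chromosomes, members numbered 50, 80, 104, 91 and 63, which followed the 589, 784, 1016, 804 and 585 kept peaks.

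**Figure D5:**
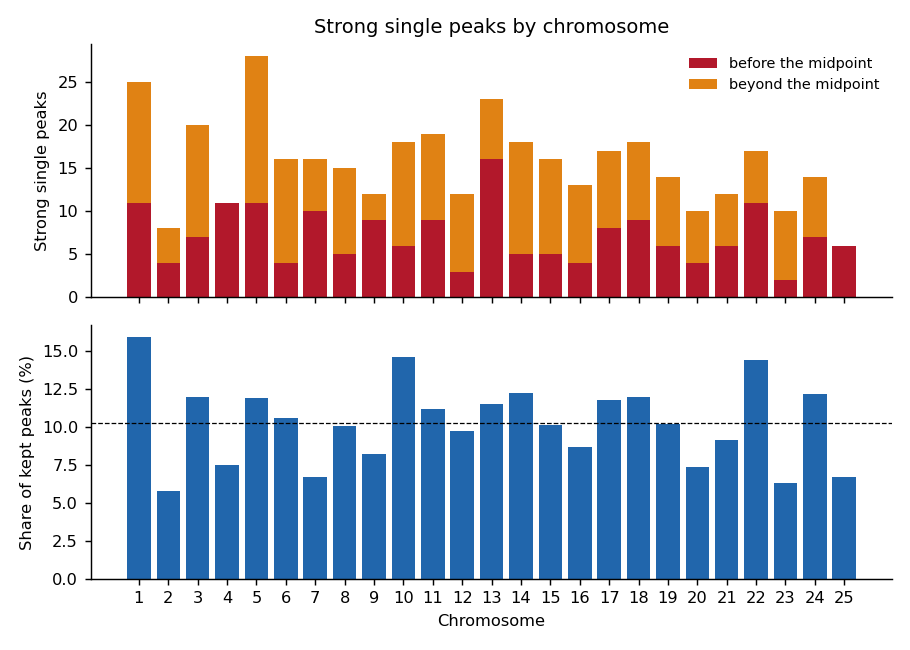
Upper panel, number of strong single peaks on each numbered chromosome (y axis), split at the midpoint; lower panel, the same peaks as a percentage of the kept peaks of that chromosome, with the 10.3% of the whole dashed. Counts run from 6 to 28, and chromosomes 4 and 25 have none beyond the midpoint.

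Members lay about as far from the peaks of the control list as kept peaks in general. That list was sparse: 240 of its 398 peaks were on the numbered chromosomes, and only 10 Tbx6myc peaks there overlapped one. The median distance to the nearest wild-type peak was 2.53 Mb (quartiles 0.865 and 5.95 Mb), against 2.40 Mb for weaker single peaks and 2.45 Mb for all kept peaks. A wild-type peak lay within 100 kb of 13 members (3.35%, 1.97 to 5.65%), close to the 3.84% of all kept peaks. It lay within 10 kb of 3 members (0.773%), against 0.662% of all kept peaks (25 of 3778). These were chr8:17622315-17622705 (score 363) at 6.05 kb, chr4:13370346-13370740 (score 311) at 8.54 kb and chr21:22461428-22461878 (score 313) at 9.07 kb, and the wild-type peaks beside them scored 94.7, 101 and 97.9. All 3 members were in the lower part of the score range. For the 10 strongest members the nearest wild-type peak was between 642 kb, on chromosome 12, and 30.3 Mb, on chromosome 1.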

How the data were processed

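Anti-myc ChIP was done on whole zebrafish embryos after a heat shock, and 2 of the 4 labelled samples have a peak list. Bowtie alignment to Zv9, also called danRer7, is named in the submitters' processing notes. For the version of Bowtie and for the peak caller with its threshold, the sources used here give nothing. The deposited score is −10 × log10 p per the file headers. In the Tbx6myc list it is an average, and per the labels that list merges 2 ChIP libraries and their inputs. Widths and positions are other deposited values in bp, and width equalled stop − start + 1 in all 3997 and 398 rows. Merging and averaging hide any difference between the libraries.

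Distances were counted as the bases between intervals, with Python 3.11.15, pandas 2.3.3 and scipy 1.17.1. Overlap meant at least 1 shared bp. On 5 simulated lists built with the rule's own thresholds, the code found all 186 planted members and no other peak. That checks the code only. The members, classes and distances were chosen with earlier results of these data known, and members were selected on score and spacing, so no test was made. Named peaks are the 10 highest scores, the 2 nearest to each threshold on both sides, the 3 widest, narrowest and nearest to wild-type peaks, the 3 top mutual pairs, the 3 with the strongest neighbours, the median, and all with a twin. Planned gene and motif descriptions were not made, without a genome of the build. Alternatives covered overlap, spacing, score, twins and chromosome 4.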

Additional observations from a re-analysis of the deposited data

How the results depend on the processing

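Over 11 alternatives, 60 of 66 recomputed values stayed within 1.5 times the count of members or within the 95% interval of a share or median. Some alternatives could hardly move anything, so that tally says little about stability. Leaving out peaks within 1 kb of a wild-type peak, or counting all Tbx6myc peaks as neighbours, returned exactly the main values. Without the wild-type filter there were 389 members. A score threshold of 400 left 193 members with a median width of 645 bp, and the neighbour scored lower in 94.3% of them. With a threshold of 250 there were 569 members and that share was 81.4%. With single peaks defined at 5 kb, 13.5% of members had a neighbour in a locus of 2 or more, and at 20 kb 24.7%, against 18.8% at 10 kb. The moves in the count and in the neighbour shares go with the changed thresholds. Width is not part of the rule, but a threshold of 400 leaves out the 195 members under 400, whose median width was 563 bp. The larger median of the rest follows from that. Why width goes with score was not tested. The share beyond the midpoint stayed between 51.1 and 55.4%, and the median distance to a wild-type peak between 2.25 and 2.57 Mb. No paired analysis was possible because each genotype has 1 list. Depth is unknown, so a neighbour or a control signal too weak to be called would make a peak look more isolated or cleaner than it is.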

Other observations

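The member that stood out most from its nearest peak, chosen after its values were seen, was chr10:43974910-43975503, with a score of 817 beside a peak of score 95.3 at a gap of 16.7 kb, a ratio of 8.57. Apart from the twins of equal width and score, 2 other mutual pairs of members had equal widths and unequal scores, and they too were singled out after their values were seen. On chromosome 16, peaks starting at 37747388 and 37856666 were both 641 bp wide and scored 500.4 and 488. On chromosome 13, peaks starting at 10855609 and 11006988 were both 524 bp wide and scored 349.6 and 304. Their sequences were not compared here.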
